A study of Drosophila melanogaster with 2 samples.

Results

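Of the 6501 summits in the conservative peak list of CG31441-eGFP, 5383 lay on chromosome arms 2L, 3L, 3R and X, and 653 of these (12.1%) fell in 35 crowded windows. Each arm was cut into fixed windows of 100 kb, counted from its first base, and a window was kept as dense when it held at least 15 summits. A summit is the base at which the authors placed the top of a peak. Of 1075 windows, 35 (3.26%) passed, and they hold 3.50 of the 107 Mb of these arms. Since the windows were selected on their number of summits, that number, the spacing that follows from it and the share of genes bound are given as descriptions only.

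The study used whole Drosophila melanogaster embryos aged 0 to 16 h from the strain CG31441-GFP, in which a transgene makes a fusion of CG31441, a predicted zinc-finger protein, with enhanced green fluorescent protein. Sonicated chromatin was pulled down through the GFP tag and sequenced (ChIP-seq). The labels give 2 biological replicates of this 1 group and no second condition, so no test between groups of samples exists. Differences between windows are set beside the values of the 2 replicates. Control libraries were not analysed here. All embryos carried the transgene, and whole embryos mix all cell types of this age span, so a peak cannot be placed in a tissue. The number of reads behind each peak is unknown. The files give each peak a signal, the authors' own value from their peak caller on a scale that is not stated, and signals were compared only within 1 list unless both replicates' values are printed as a description.

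Zinc-finger proteins of this kind bind DNA through fingers that each read a few bases, and for most of the many such proteins in insects the targets are little studied. In the compact fly genome, genes that are controlled in complex patterns in the embryo, such as those for transcription factors and signalling molecules, are often flanked by long stretches without other genes, and these stretches and long first introns hold many of their enhancers. Housekeeping genes, by contrast, tend to lie close together with short promoters, often divergent pairs that share the sequence between them.

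The sequences at the strongest summit of the 6 windows with the most summits are shown first, as examples of the sites with the highest signal in the most crowded windows. Each is the summit and 50 bp on either side, from the plus strand of dm6 in the RefSeq genome, with the 11 bases centred on the summit in capitals. The name gives the gene with the nearest transcription start site (TSS).
near CG44362, chr3L:11405993-11406093: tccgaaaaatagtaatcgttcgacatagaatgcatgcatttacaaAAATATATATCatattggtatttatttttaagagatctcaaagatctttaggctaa
near CG6168, chr3L:11318905-11319005: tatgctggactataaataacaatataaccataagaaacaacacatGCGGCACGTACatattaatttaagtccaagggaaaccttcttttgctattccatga
near CG13896, chr3L:724687-724787: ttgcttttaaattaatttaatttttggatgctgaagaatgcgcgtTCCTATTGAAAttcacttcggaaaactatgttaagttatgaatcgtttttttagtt
in tna, chr3L:10855900-10856000: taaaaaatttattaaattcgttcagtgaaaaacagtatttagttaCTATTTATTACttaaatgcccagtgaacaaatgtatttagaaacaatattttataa
near CG5103, chr3L:18281369-18281469: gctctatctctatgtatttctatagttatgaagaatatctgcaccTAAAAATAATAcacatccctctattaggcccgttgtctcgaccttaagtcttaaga
in CG14434, near CG43736, chrX:6863309-6863409: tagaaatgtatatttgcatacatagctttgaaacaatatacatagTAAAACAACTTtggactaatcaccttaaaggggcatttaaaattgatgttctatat
These stretches are rich in A and T: G and C make up 19.8% of the bases at the tna summit and 35.6% at the summit near CG5103, with the other 4 in between. None of the 6 held any of the 7 motifs that were searched, which are spelled out further on.

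The dense windows were spread unevenly over the arms. On 3L 16 of 282 windows were dense (5.67%), and they held 330 of the 1530 summits of that arm (21.6%). On X 8 of 236 windows were dense, with 11.3% of its summits, on 3R 6 of 321 with 7.14%, and on 2L 5 of 236 with 6.90%. The median over all windows was 4 summits, and 199 windows held 0. At the threshold, 6 windows held 15 summits and were kept, and 15 windows held 14 and were not. The densest window held 32. Peaks covered 6.30% of the bases of the dense windows, and in single windows from 4138 to 11619 bp.

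Some dense windows were neighbours. A run of 3 windows on 3L, from 11200001 to 11500000, held 82 summits, while the windows before and after it held 4 and 10. A second run of 3 on 3L, from 600001 to 900000, held 64 summits, with 13 and 3 in the windows on its sides. A pair on 3L, from 10700001 to 10900000, held 40 summits, with 14 before and 3 after. The remaining 27 dense windows stood alone. Without the windows of the 2 runs of 3, a division chosen after seeing the data, 10 of the remaining 276 windows of 3L were dense (3.62%).

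Both replicates' own lists placed many summits in these windows. Replicate 1 had 468 of its 4119 thresholded summits of the 4 arms there (11.4%), between 7 and 20 a window with a median of 13, and replicate 2 had 494 of 4497 (11.0%), between 10 and 24 with a median of 13. Over all windows the median was 3 in each replicate. Counted in a single replicate, 14 windows held at least 15 summits in replicate 1, of which 13 were dense windows, and 14 did in replicate 2, of which 12 were. The replicates differed most in the window around hth on 3R, a homeodomain cofactor of the Hox proteins, with 7 summits in replicate 1 and 14 in replicate 2, and in the window of aay on 3L, with 18 in replicate 1 and 10 in replicate 2. Replicate counts are not independent of the selection, since the conservative list was made from both replicates.

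**Figure D1:**
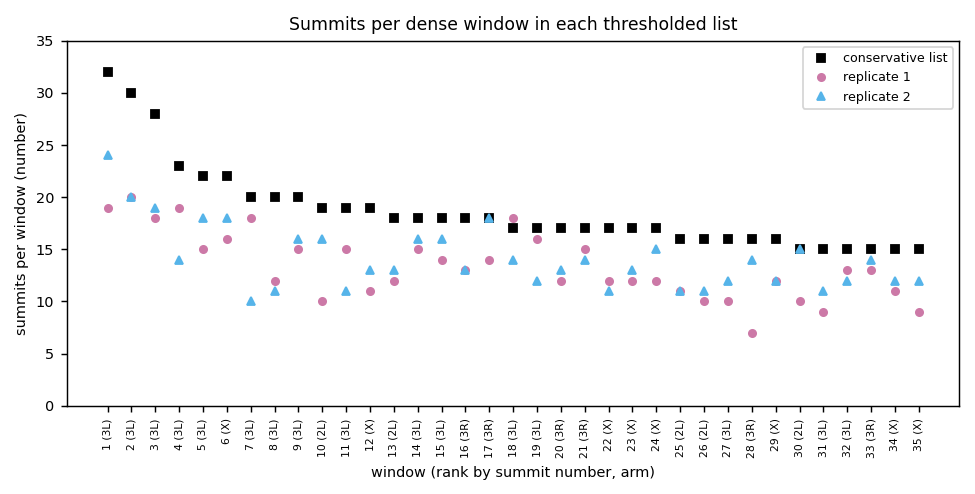
Number of summits per dense window (vertical axis) for the 35 windows, ordered by their count in the conservative list and labelled by rank and arm. Squares are the conservative list, circles replicate 1 and triangles replicate 2; the replicates range from 7 to 24, while the median over all windows was 3 in each.

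The summits of dense windows lay outside genes more often, and at promoters less often, than the other summits of the same arms. Outside protein-coding genes and their promoters lay 268 of the 653 dense-window summits (41.0%), against 965 of the 4730 other summits (20.4%). Promoters, taken as the 500 bp on either side of a protein-coding TSS, held 165 (25.3%) in dense windows, against 1747 (36.9%) elsewhere. Introns held 212 (32.5%) in dense windows and 1947 (41.2%) elsewhere. Coding exons beyond the promoter held 0 summits in dense windows and 13 (0.275%) elsewhere, 3' untranslated regions held 6 in dense windows and 42 elsewhere, and 5' untranslated regions beyond the promoter held 2 in dense windows and 16 elsewhere. In the 58 windows just under the threshold, with 12 to 14 summits, the shares were 34.5% at promoters, 40.2% in introns and 23.1% outside genes.

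The same shift was present in each replicate's own list, counted in the same windows. The windows came from a list made from both replicates, so these lists are not independent of that choice. In replicate 1, 41.7% of dense-window summits lay outside genes, against 17.2% in the other windows, and 27.4% lay at promoters, against 43.5%. In replicate 2, 39.3% lay outside genes, against 18.1%, and 25.7% at promoters, against 40.4%. The promoter share of dense windows had an SD of 1.16 percentage points between the replicates (n = 2), and both replicates' values lay below those of their other windows. Many of the summits outside genes came from few places. The 2 runs of 3 windows held 146 summits, of which 119 lay outside genes, and without them 29.4% of the remaining 507 lay outside genes, 28.4% at promoters and 40.6% in introns. In the replicates' own lists the share outside genes was then 30.3% in replicate 1 and 27.8% in replicate 2. With any 1 window left out, the share outside genes ran from 38.3 to 42.5% and the promoter share from 23.5 to 26.4%.

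**Figure D2:**
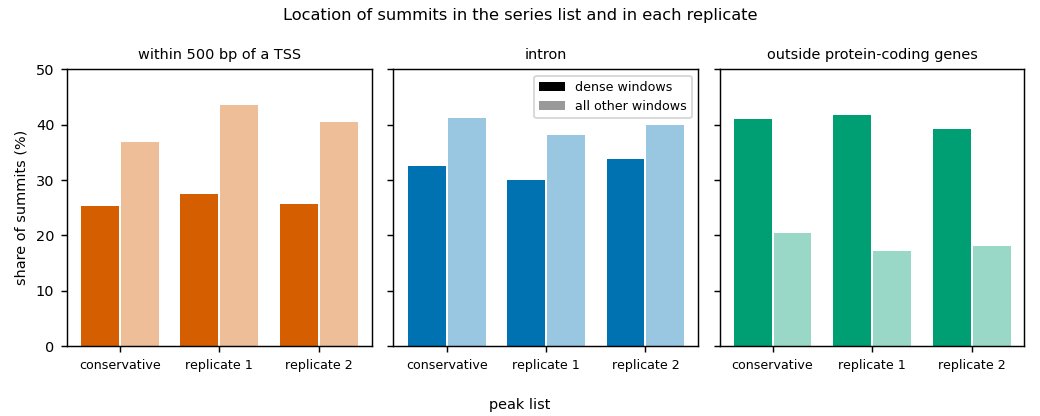
Share of summits (%) within 500 bp of a TSS, in introns and outside protein-coding genes, for the conservative list and for each replicate. Dark bars are dense windows and pale bars all other windows of 2L, 3L, 3R and X; outside genes the dense windows reach 41.0, 41.7 and 39.3%, against 20.4, 17.2 and 18.1%.

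Single windows differed widely in make-up. In 10 windows most summits lay outside genes, in 11 most lay in introns and in 5 most lay at promoters, while 9 had no class above 50%. The number of protein-coding genes per window had a median of 8.50 in the windows led by summits outside genes, 10 in those led by introns and 22.0 in those led by promoters. The promoter share ran from 0 to 80.0% with a median of 18.8%, and 24 of the 35 windows lay under the 36.9% of the other summits. At the extremes, 5 windows held 0 promoter summits and 7 held 0 summits outside genes. The dense windows as a whole held a median of 12 protein-coding genes (1 to 28), against 10 in the other windows.

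**Figure D3:**
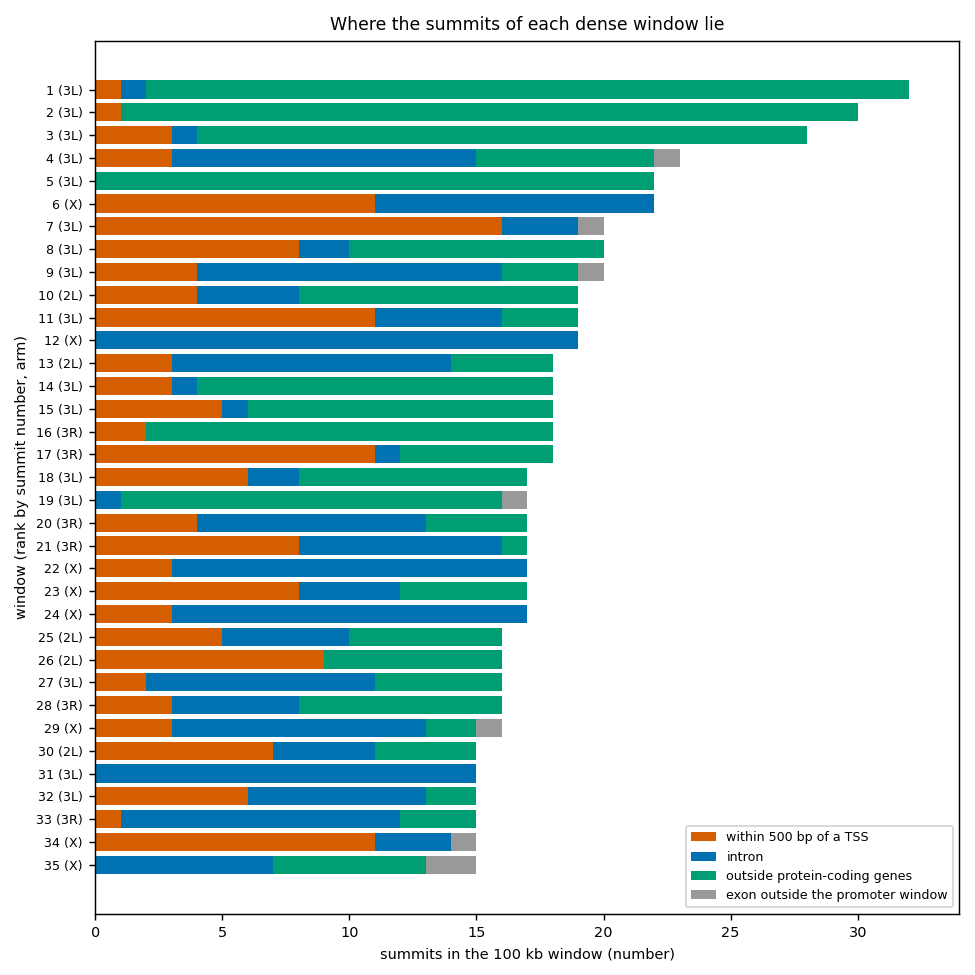
Number of summits (horizontal axis) in each of the 35 dense windows, split by where the summit lies. Windows run from the most summits (32, top) to the fewest (15, bottom) and are labelled by rank and arm; the 3 at the top hold 30, 29 and 24 summits outside genes, while the window ranked 7 holds 16 promoter summits of 20.

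The most crowded place was the stretch between scyl and chrb on 3L, which both encode inhibitors of TOR signalling induced by low oxygen. Between the genes, from 11256173 to 11487549, 231 kb held 73 summits of the conservative list, 69 of them outside genes and 2 at promoters. The annotation places 14 protein-coding genes in between. The stretch was picked after its values were seen. Replicate 1 had 49 summits in it and replicate 2 had 48. The signal ran from 6.36 to 498.1 with a median of 167. Of the 73 summits, 39 were covered by thresholded peaks of both replicates and 17 by those of neither.

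Its 3 windows ranked 1, 2 and 8. The window from 11400001 to 11500000, ranked 1, held 32 summits at a median spacing of 1483 bp, 30 of them outside genes, and its densest 10 kb held 9. Its strongest summit (468.5 in the conservative list, 235.2 in replicate 1 and 238.4 in replicate 2) lay 8501 bp downstream of the TSS of CG44362, in the annotated non-coding gene lncRNA:CR44363. The summit at the promoter of chrb (113.1), held by a thresholded peak of replicate 2 alone, was the single promoter summit of the window. The window before it held 30 summits, 29 of them outside genes; its strongest, 2764 bp from the TSS of CG6168, had 409.6 (217.4 in replicate 1 and 184.1 in replicate 2). The stretch between CG44362 and CG7560, which is free of protein-coding genes and crosses the border of these windows, held 17 summits in 27.3 kb. It shared first place by number of summits among 8298 stretches between neighbouring protein-coding genes on the 4 arms, and was 272nd by length. The window from 11200001 to 11300000 held 20 summits. Its strongest was at the promoter of Dyro (498.1, with 333.0 in replicate 1 and 168.3 in replicate 2). The promoter of scyl had 115.3, in a thresholded peak of neither replicate.

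A second concentration surrounded emc on 3L, which encodes a helix-loop-helix protein that blocks proneural factors. The window from 700001 to 800000, ranked 3, held 28 summits, 24 of them outside genes, among 5 protein-coding genes. The promoter summit of emc itself, held by a thresholded peak of replicate 2 alone, had a modest signal of 142.8, below the window's median of 180. Its strongest summit, 12887 bp upstream of CG13896, had 556.3 (297.7 in replicate 1 and 256.2 in replicate 2), and the promoter of hng3, the gene whose body held the most summits (3), had 451.3 (258.5 in replicate 1 and 201.1 in replicate 2). The 47.9 kb without protein-coding genes that follow hng3, up to CG13898, held 17 summits, with 9 in replicate 1 and 11 in replicate 2. On either side, the window from 600001 to 700000 held 18 summits with a high median signal of 289, and the one from 800001 to 900000 held 18 with a median of 195.

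The first of these flanking windows holds the microRNA gene mir-ban (bantam), which promotes growth and blocks cell death in fly tissues. Within lncRNA:CR43334, a non-coding gene from 628435 to 643900 that spans mir-ban, lay 6 summits. The strongest of these had 399.0 (203.1 in replicate 1 and 178.1 in replicate 2), and the one within 500 bp of mir-ban had 319.4 (221.6 in replicate 1 and 98.9 in replicate 2). Both were above the median of the window. Apart from this gene, a summit 9048 bp upstream of Reg-2 had 390.6 (201.8 in replicate 1 and 186.3 in replicate 2). The strongest summit of the window lay in an intron of CG13894, with 613.4 (332.1 in replicate 1 and 277.4 in replicate 2).

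Other windows led by summits outside genes ranged from 1 to 21 protein-coding genes. The window from 18200001 to 18300000 on 3L, ranked 5, held 22 summits, all outside protein-coding genes, and 16 of them lay in the 48.5 kb between CG7320 and CheA75a. Its strongest, 12843 bp from CG5103, had 401.4 (212.3 in replicate 1 and 179.1 in replicate 2). The window from 10700001 to 10800000 on 3L held 17 summits and the TSS of 1 protein-coding gene, CG43245; 15 summits lay outside genes, and the strongest had 572.2 (346.5 in replicate 1 and 232.5 in replicate 2), 19154 bp upstream of it. In a window on 3R that holds 21 protein-coding genes, among them the cluster of gustatory receptor genes Gr93a, Gr93b, Gr93c and Gr93d, whose products sense tastants, 16 of 18 summits lay outside genes. None of these 4 receptor genes had a promoter summit. Long stretches without protein-coding genes were not crowded in general: of 80 stretches over 50 kb on the 4 arms, 43 held 0 summits and 3 held at least 10.

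The window ranked 10, on 2L from 3800001 to 3900000, surrounds slp1 and slp2, a pair of forkhead genes that pattern the body segments. It held 19 summits, 11 of them outside genes, and neither slp gene had a summit within 500 bp of its TSS. The strongest summit lay between them, 4316 bp upstream of slp2, with 523.1 (264.4 in replicate 1 and 267.2 in replicate 2). Another lay 2204 bp downstream of the slp1 start, with 367.7 (208.5 in replicate 1 and 152.8 in replicate 2). A further 10 summits lay in the 23.5 kb between slp2 and TTLL4B, of which replicate 1 had 3 in its own list and replicate 2 had 9. The gene body with the most summits, 4, was that of capu, which encodes an actin-nucleating formin.

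**Figure D4:**
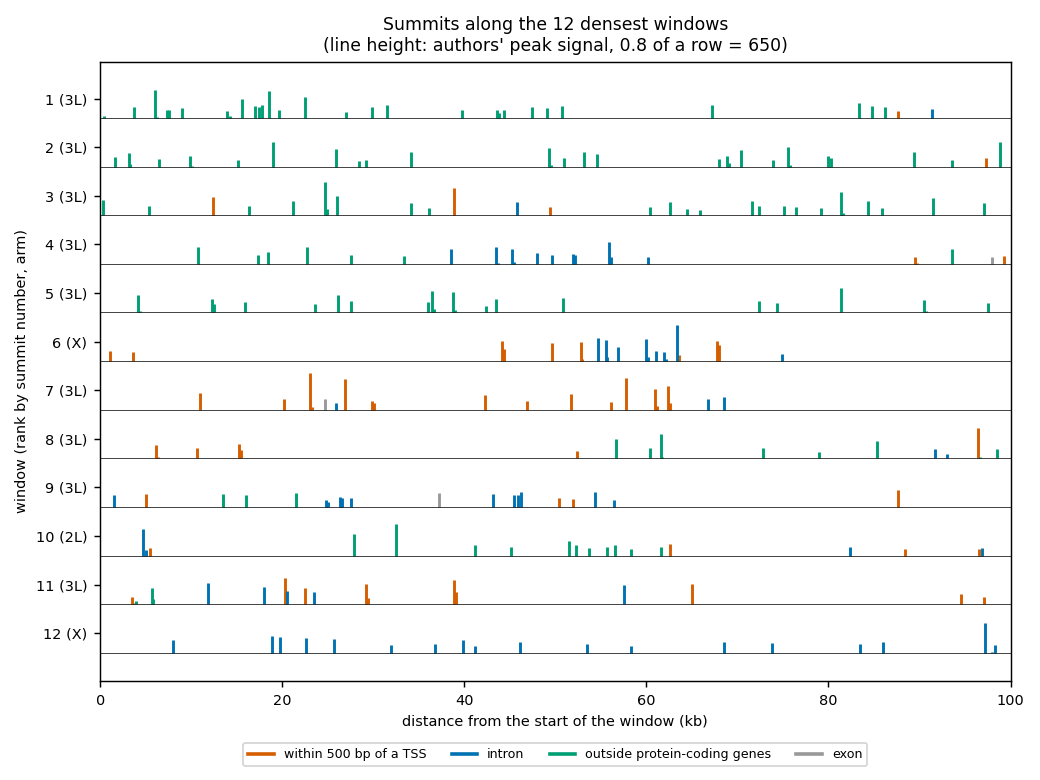
Positions of summits along the 12 windows with the most summits, as the distance from the start of each window (kb). Each vertical line is a summit, its height the authors' peak signal and its colour the class; green lines (outside genes) fill windows 1, 2, 3 and 5, and blue lines (intron) fill window 12.

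In the windows led by introns, 1 long gene often held most of the summits. On X, from 3000001 to 3100000, all 19 summits lay in introns of kirre, which encodes an adhesion protein of the immunoglobulin family needed for muscle fusion; the strongest had 499.2 (259.3 in replicate 1 and 235.2 in replicate 2). Kirre spans 394 kb. On 3L all 15 summits of a window lay in introns of fz, the receptor for Wnt ligands and planar cell polarity, with a strongest signal of 463.7 (229.5 in replicate 1 and 242.1 in replicate 2). On X all 17 summits of a window lay within CG1677, whose annotated 125 kb span several other genes, among them brk, the repressor of Dpp targets. The strongest of these, 806 bp downstream of the Dok start, had 660.1 (341.8 in replicate 1 and 312.4 in replicate 2). A summit 687 bp upstream of brk had 509.9 (361.6 in replicate 1 and 148.5 in replicate 2). A second summit in the same peak interval, 481 bp upstream of the brk TSS, had 15.8.

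Other genes held a smaller part of their window. The trithorax group gene tna, on 3L, held 12 of 23 summits in its 41.0 kb, with a strongest signal of 362.8 (188.0 in replicate 1 and 156.2 in replicate 2) and no summit within 500 bp of its TSS. The integrin subunit gene mew held 9 of 17, the ETS factor gene pnt, a target and effector of EGFR signalling, 9 of 15, mtgo 8 of 18, rols, needed for muscle fusion, 7 of 16, and the corepressor gene Smr 7 of 15. The strongest summit of any dense window had 671.6 (394.6 in replicate 1 and 273.1 in replicate 2). It lay in the Smr window but outside protein-coding genes, 4793 bp from CG4004 and inside lncRNA:Vinr. Smaller numbers lay in rdx, a gene of the Hedgehog pathway (6 of 17), Grip (6 of 16), Diap1, the inhibitor of caspases (5 of 20), and hth (4 of 16). Genes over 20 kb held 163 of the 653 dense-window summits with 32.5% of the windows' bases, against 1646 of the 4730 other summits with 39.1% of the bases.

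In the windows led by promoters the genes were many. The window from 9400001 to 9500000 on 3L held 28 genes, and 16 of its 20 summits lay at promoters, so that 18 of the genes had a promoter summit. The strongest was at aay, a phosphoserine phosphatase gene (614.3; 312.5 in replicate 1 and 309.2 in replicate 2). Next came the summit shared by CG3552 and CG3437 (535.3; 274.7 in replicate 1 and 265.9 in replicate 2) and that shared by Atat, a tubulin acetyltransferase gene, and the adaptor gene Shc (517.7; 277.5 in replicate 1 and 241.0 in replicate 2). A lower signal was found there at phol (128.8), which encodes a DNA-binding protein of the Polycomb group. No thresholded peak of either replicate held this phol summit. On X, from 2000001 to 2100000, 11 of 15 summits lay at promoters, with moody, a receptor of the blood-brain barrier, highest at 360.0 (180.6 in replicate 1 and 173.1 in replicate 2). The promoter of usp, the partner of the ecdysone receptor, had 259.7, in a thresholded peak of replicate 1 alone. That of Actn, the alpha-actinin gene, had 167.6. Around Rgl, a guanine nucleotide exchange factor gene for Ral on 3L, 11 of 19 summits lay at promoters, and the strongest was its own, at 435.0 (240.5 in replicate 1 and 181.8 in replicate 2). In the window of RpL30 on 2L it was 9 of 16, with RpL30 itself highest at 378.2 (183.0 in replicate 1 and 200.1 in replicate 2).

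The Enhancer of split complex on 3R was the fifth window led by promoters. Its E(spl) genes encode basic helix-loop-helix repressors and Bearded family proteins that are switched on by Notch. From 26000001 to 26100000, 11 of 18 summits lay at promoters, and the median signal was 272. The strongest was at E(spl)m3-HLH (602.9; 379.8 in replicate 1 and 206.1 in replicate 2). Next came E(spl)m7-HLH (537.2; 301.4 in replicate 1 and 229.8 in replicate 2) and E(spl)m2-BFM (485.0; 280.5 in replicate 1 and 202.5 in replicate 2). The neighbouring gro, which encodes the corepressor that these repressors recruit, had 404.3 (226.6 in replicate 1 and 175.2 in replicate 2). Replicate 1 had 14 summits in the window and replicate 2 had 18. The other 6 members of the complex that were listed, E(spl)mbeta-HLH, E(spl)malpha-BFM, E(spl)m4-BFM, E(spl)m5-HLH, E(spl)m6-BFM and E(spl)m8-HLH, had no promoter summit, although a summit of 424.3 lay 1804 bp upstream of E(spl)malpha-BFM.

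The window ranked 6, on X from 6800001 to 6900000, was split evenly, with 11 promoter and 11 intronic summits. Its 22 summits made 14 regions without overlap. Of the summits, 13 lay in the 15.3 kb of CG14434, and 11 lay within a single 10 kb, the most of any dense window. The strongest, 529 bp upstream of CG43736, had 605.0 (335.5 in replicate 1 and 266.2 in replicate 2). The window around Diap1, ranked 9, had the lowest top signal of the 35, 281.7 at Tasp1 (171.3 in replicate 1 and 122.0 in replicate 2). Beside the windows of Smr and CG14434, high signals in windows with no leading class were found at PTPMT1 with Hrd3 on 3R (600.1; 364.4 in replicate 1 and 244.6 in replicate 2), at brwl on 2L (593.3; 352.0 in replicate 1 and 249.5 in replicate 2), and 669 bp upstream of nej, the CBP acetyltransferase gene, on X (581.0; 300.3 in replicate 1 and 284.5 in replicate 2). In this window Ptpmeg2, a phosphatase gene, held 8 of 17 summits. The promoter of nkd, an inhibitor of Wnt signalling, had 521.7 in its window on 3L (276.4 in replicate 1 and 240.4 in replicate 2), beside that of Mkp3, a phosphatase acting on ERK, with 448.2. The promoter of Act5C, a cytoplasmic actin gene on X, had 333.2.

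In the 11 windows whose strongest summit has not been given, it had a signal between 303.7 and 522.9. The highest of these lay 3350 bp upstream of foxo on 3R, which encodes a transcription factor of the insulin pathway (522.9; 295.8 in replicate 1 and 229.6 in replicate 2), and the promoter of foxo had 452.8. It was followed by a summit at CG31431, in the window of the Gr93 genes (521.0; 270.6 in replicate 1 and 254.5 in replicate 2), and by one 1743 bp from CG3726 in the window of Act5C (519.8; 239.6 in replicate 1 and 277.6 in replicate 2). At aru on 2L the promoter had 490.5 (238.2 in replicate 1 and 247.9 in replicate 2), and at CG34056, in the last window of the emc run, it had 489.4 (260.0 in replicate 1 and 220.5 in replicate 2). A summit 18017 bp from Ids on 3L had 469.3 (212.9 in replicate 1 and 223.6 in replicate 2), the promoter of CG5953 in the mtgo window had 412.1, an intron of mew near CG32639 had 370.7 and an intron of pnt had 363.9. The lowest were the promoters of Phyhd1 in the hth window (338.4) and of the semaphorin gene Sema5c in the rols window (303.7; 194.9 in replicate 1 and 108.8 in replicate 2). The strongest summit of a window lay at a promoter in 16 windows, outside genes in 10 and in an intron in 9, and its signal was higher in replicate 1 than in replicate 2 in 28 of 35.

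Of the 11013 protein-coding genes on the 4 arms, 2056 (18.7%) had a promoter summit, and in dense windows it was 156 of 424 (36.8%), a share tied to the selection of the windows. From 17 gene lists, the Notch and E(spl) list had the largest part in dense windows, with 11 of 22 members, 9 of them in the E(spl) window; all genes together had 3.85%. With a promoter summit were 4 of the 11. Segmentation and head gap genes had 4 of 23 there, slp1, slp2, nkd and btd, and of these nkd alone had a promoter summit. Cytosolic ribosomal protein genes had 4 of 67, among them RpL30 and RpL34a (398.2), which had a promoter summit, and RpS3, which did not. In the Wnt, Hedgehog and TGF-beta list it was 2 of 21 (nkd and brk), in the muscle and actin list 2 of 21 (Actn and Act5C) and in the Polycomb and trithorax list 2 of 23 (phol and tna). The ecdysone list had 1 of 28 (usp), the dorsoventral list 1 of 21 (nau), the neurogenesis list 1 of 26 (gcm), the EGFR list 1 of 21 (pnt), the heat shock list 1 of 19 (Hsc70-1) and the mitochondrial ribosomal list 1 of 61 (mRpS31, 215.9). Cuticle protein genes had 5 of 93, of which Cpr67Fa1 (121.5, in replicate 2 alone) had a promoter summit. Chemosensory receptor genes had 6 of 133, of which 0 had a promoter summit. Hox genes (0 of 8), insulator factors (0 of 17) and axon guidance genes (0 of 22) had no member in a dense window. Neighbouring genes of a cluster share a window, so these counts do not come from independent places.

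Signals in dense windows were about as high as elsewhere at promoters and in introns, and higher outside genes. The median was 204 in dense windows and 207 in the other windows at promoters, and 180 in both in introns. Outside genes it was 191 in dense windows and 161 in the other windows. In the replicates' own lists the summits outside genes had medians of 129 in dense windows and 116 in the other windows in replicate 1, and of 102 in dense windows and 80.3 in the other windows in replicate 2. Without the 2 runs of 3 windows these medians of dense windows were 198 in the conservative list, 134 in replicate 1 and 99.6 in replicate 2. Over all classes the median was 190 in dense windows and 181 elsewhere. Within the replicates' own lists it was 132 against 130 in replicate 1 and 96.7 against 87.6 in replicate 2. The SD between the replicates' medians of dense windows was 25.2 (n = 2). It also holds any difference in scale between their lists, so it cannot be a measure for differences within a list. The lower end differed: 66 dense-window summits (10.1%) had a signal under 50, against 266 others (5.62%). Of these 66, 35 shared their peak interval with another summit. Of all signals, 138 dense-window summits (21.1%) shared an interval, against 579 others (12.2%). Peaks that overlapped another peak, shared intervals included, held 235 dense-window summits (36.0%), against 1170 others (24.7%). Counted as regions without overlap, the dense windows held 535 and the others 4140.

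Recovery in the replicates' thresholded lists was like that of other summits, with summits of a shared interval able to count through the same replicate peak. A thresholded peak of both replicates held 364 dense-window summits (55.7%), against 2578 others (54.5%); 75 were in replicate 1 alone, 98 in replicate 2 alone and 116 in neither (17.8%, against 17.9% of the others). With overlapping peaks merged and the windows chosen anew, the share in both thresholded lists was 55.9% in dense windows and 58.9% in the others. In the ranked lists before thresholding, 89.3% of dense-window summits and 93.8% of the others lay in a peak of both replicates. Where both had a thresholded peak, the median ratio of signals, replicate 1 over replicate 2, was 1.32 in dense windows and 1.32 in the other windows. Replicate 1 was higher at 301 of the 364, and at 2268 of the 2578 in the other windows.

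Neighbouring summits of a dense window lay a median of 2519 bp apart, against 4890 bp in the other windows, which follows in part from the selection. Of 618 gaps, 128 (20.7%) were under 500 bp, against 16.2% elsewhere, and 72 (11.7%) were over 10 kb, against 31.5%. Summits were not spread evenly within windows: the largest gap was 43526 bp, in the window of mtgo, and the densest 10 kb of a window held between 3 and 11 summits. Within promoters 81.8% of the dense-window summits lay upstream of the TSS, against 83.2% of the others, at a median distance of 171 bp, against 148 bp. Summits outside genes lay a median of 5308 bp from the nearest TSS in dense windows, against 5281 bp elsewhere, and without the 2 runs of 3 windows the median of dense windows was 4062 bp. Non-coding RNA genes held 25 of the 268 dense-window summits outside protein-coding genes (9.33%), against 10.2% of the others.

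Base composition at the summit was much the same in and out of dense windows. The median content of G and C from 50 bp before to 50 bp after the summit was 28.7% in dense windows and 29.7% in the others, while windows of the same length tiled over the whole sequence had 42.6% in both. In steps of 50 bp the mean fell to 31.1% at the summits of dense windows and to 30.9% at the others, and at 250 bp along the plus strand it reached 44.7% in dense windows and 44.4% in the others. Soft-masked sequence, that is repeats and low-complexity stretches, held 184 dense-window summits (28.2%), against 27.2% of the others.

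**Figure D5:**
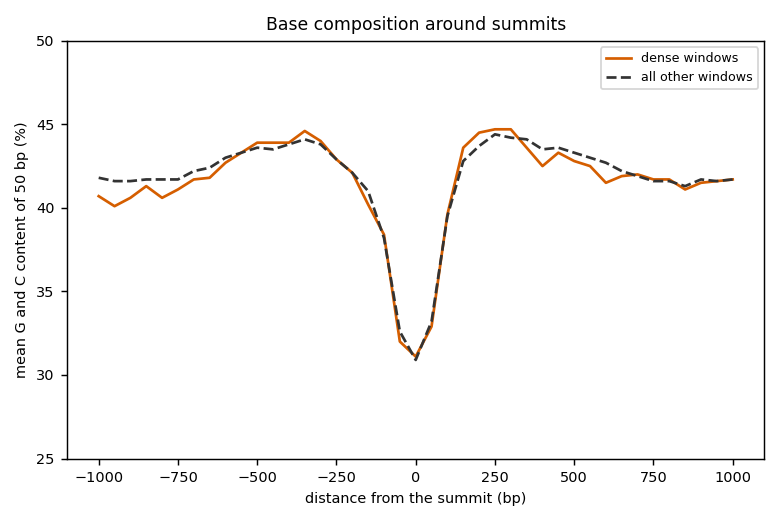
Mean G and C content (%) of 50 bp steps against the distance from the summit (bp, plus strand), for dense windows (solid) and all other windows (dashed). Both curves dip at the summit, to 31.1% and 30.9%.

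The 7 motifs were searched on both strands within 50 bp of each summit, with matches allowed to overlap those of other motifs. GAGAG, the core of the GAGA element, was in 7.81% of dense-window summits and in 8.84% of the other summits, against 11.6% of stretches of the same length tiled over the dense windows. The core of the DNA replication-related element, TATCGATA, was in 3 dense-window summits (0.459%) and in 1.27% of the others, against 0.289% of tiles. GGTCACAC, a core of the promoter element Motif 1, was in 6 dense-window summits (0.919%) and in 0.634% of the others, against 0.231% of tiles. The site of the early activator Zelda, CAGGTAG, was in 1 dense-window summit (0.153%) and in 0.571% of the others, against 0.528% of tiles. The E-box CAGCTG was in 2.91% of dense-window summits and in 2.71% of the others, against 4.60% of tiles. The repeat ACACACAC was in 1.23% of dense-window summits and in 0.888% of the others, against 2.35% of tiles, and AAAAAAAA was in 8.73% of dense-window summits and in 8.50% of the others, against 7.05% of tiles.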

How the data were processed

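ChIP-seq peak lists of 2 biological replicates of 1 group were used, and the members and lists were chosen with earlier results of these data known. The authors deposited peaks in the narrowPeak layout on dm6, called per replicate and on both replicates together. Signal is the authors' deposited peak value, of unstated scale. The score is the authors' deposited value from the irreproducible discovery rate (IDR), capped at 1000. The sources used here name neither the aligner nor the peak caller. The conservative list was the main list.

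Summits were start plus deposited offset, 1-based. Genes came from Ensembl release 115 (11013 protein-coding genes and 15427 TSSs on the 4 arms), sequence and soft-masking from RefSeq. Summits were assigned in order to promoter (within 500 bp), untranslated region, coding exon, intron or outside. A summit was in a replicate if a thresholded peak of that replicate held it. Library depth is unknown, so no interval that needs it is given.

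Named genes were, per window, that nearest the strongest summit, that holding the most summits and the members of 17 lists with a promoter summit; others were chosen after their values were seen, and some results are not reported here. Window selection and distances were tested on simulated data. Alternatives changed the minimum, grid, promoter width, peak list, masking and overlap rule. Python 3.11.15, numpy 2.4.6, pandas 2.3.3 and matplotlib 3.10.9 were used.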

Additional observations from a re-analysis of the deposited data

How the results depend on the processing

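The promoter share of dense-window summits was below that of the other windows as reported and under every other setting for which both were computed. The settings by score, by the less strict list and by single replicates kept the main 35 windows, so the windows were not chosen anew there. The value of the share moved with the choice of windows and of promoter. It was 30.2% with a minimum of 12 summits, 23.6% with 18, 22.7% with the grid shifted by 50 kb and 15.4% with overlapping peaks merged. Without masked summits it was 21.6%, with promoters of 250 bp 17.2% and with 1000 bp 33.1%. Without the 2 runs of 3 windows, a setting chosen after seeing the data, it was 28.4%. In the replicates' own lists, counted in the main 35 windows, it was 27.4% in replicate 1 and 25.7% in replicate 2. The number of dense windows was 93 with a minimum of 12 summits, 17 with 18 and 13 with peaks merged, and the number of summits 1396, 364 and 247. Without masked summits only 8 windows held 15 summits, so the minimum fell to 12 by the rule; 25 of the resulting 35 windows were among the main 35. The median spacing was 2990 bp with a minimum of 12, 2290 bp with 18, 3148 bp merged, 3348 bp without masked summits, 2920 bp at a score of 1000, 2343 bp in the less strict list and 3167 to 3401 bp in single replicates. The median signal was 223 at a score of 1000, equal to 223 in the other windows. In single replicates, whose scales can differ, it was 132 against 130 in replicate 1 and 96.7 against 87.6 in replicate 2. With a minimum of 18 summits it was 180 in dense windows and 182 in the others, and with peaks merged 192 in dense windows and 199 in the others. Under the remaining settings for which both were computed it was higher in dense windows, as with the shifted grid (189 against 181) and in the less strict list (182 against 167). Its order is thus not stable. The share found in both replicates was 52.9% without masked summits, 71.9% at a score of 1000, 48.7% with reciprocal overlap of 50% and 89.3% in the ranked lists. Beyond what each setting's construction does (fewer peaks, another minimum), the cause was not tested. No paired analysis was possible because there is 1 group. Unknown read depth limits what can be said of weak peaks.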
